A study of Arabidopsis thaliana with 9 samples.

Results

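The genes described here lost RNA in a stepwise manner across the 3 Arabidopsis lines, with the lowest signal in CAB3::pBVR2, an intermediate signal in 35S::pBVR3 and the highest signal in the No-0 wild type (No-0 WT, or WT). A probe set was taken when its mean signal in No-0 WT was at least 100, when its mean log2 signal in 35S::pBVR3 was at least 1 below No-0 WT, and when CAB3::pBVR2 was at least 1 below 35S::pBVR3. A log2 difference of 1 is a 2-fold difference. The arrays of neighbouring lines were also not allowed to overlap in either step. Probe sets for plastid-encoded genes and the probe sets of PnsL1 and CIPK20 were left out by the rule. Of 22746 probe sets, 112 met it. The same 9 arrays that are described below chose these genes, so that their signals and differences are given as a description and no test of them is reported.

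Seeds of Arabidopsis thaliana, accession No-0, received a red light pulse and cold stratification, whole seedlings were harvested after 7 days in continuous far-red light, and RNA was measured on 9 Affymetrix ATH1 arrays, 3 for each line. CAB3::pBVR2 and 35S::pBVR3 both carry a transgene for a plastid-targeted biliverdin reductase (pBVR), an enzyme that removes the precursor of the phytochrome chromophore and so leaves phytochrome without its light-sensing group. In CAB3::pBVR2 the transgene is driven by the promoter of a chlorophyll a/b-binding protein gene, which is active in mesophyll cells, and in 35S::pBVR3 by a viral promoter that is active in most tissues. No-0 WT carries no transgene. Each pBVR genotype was a single transgenic line, the reductase was not measured on the arrays as used here, and each array held the RNA of 1 extraction from pooled seedlings. In such bulk samples, fewer cells of a type and less RNA per cell cannot be told apart.

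Phytochrome A is the photoreceptor through which seedlings respond to continuous far-red light. Activated phytochrome moves into the nucleus, removes PHYTOCHROME INTERACTING FACTORS and stabilises activators such as HY5, and in this way raises the RNA of many nuclear genes for chloroplast proteins while the seedling de-etiolates. Mesophyll cells of the cotyledons hold most of the chloroplasts of a seedling.

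The 112 genes had a median log2 difference of −1.49 between CAB3::pBVR2 and 35S::pBVR3 (range −5.29 to −1.02) and of −1.14 between 35S::pBVR3 and WT (range −2.88 to −1.0005). At the median, 16.2% of the WT signal was left in CAB3::pBVR2 and 45.5% in 35S::pBVR3. The step into CAB3::pBVR2 was the larger of the 2 in 99 genes, and the step into 35S::pBVR3 in the other 13. Of the 105 genes above background on at least 1 CAB3::pBVR2 array, these counts were 92 and 13. The 2 steps lay within 0.25 of each other on the log2 scale in 46 genes. A measured difference of 8-fold between CAB3::pBVR2 and WT was reached by 38 genes. For 5 of these, no CAB3::pBVR2 array was above background and the lower bound was under 8-fold, which leaves 33. Genes with only some of their CAB3::pBVR2 arrays at background were given no bound and stay in these counts. Mean signals in WT ran from 129 to 11880 with a median of 1307, against a median of 459.7 over the 12997 probe sets that passed the limit of 100 in WT. The signal in WT exceeded 5000 in 15 genes and lay below 500 in 30.

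**Figure D1:**
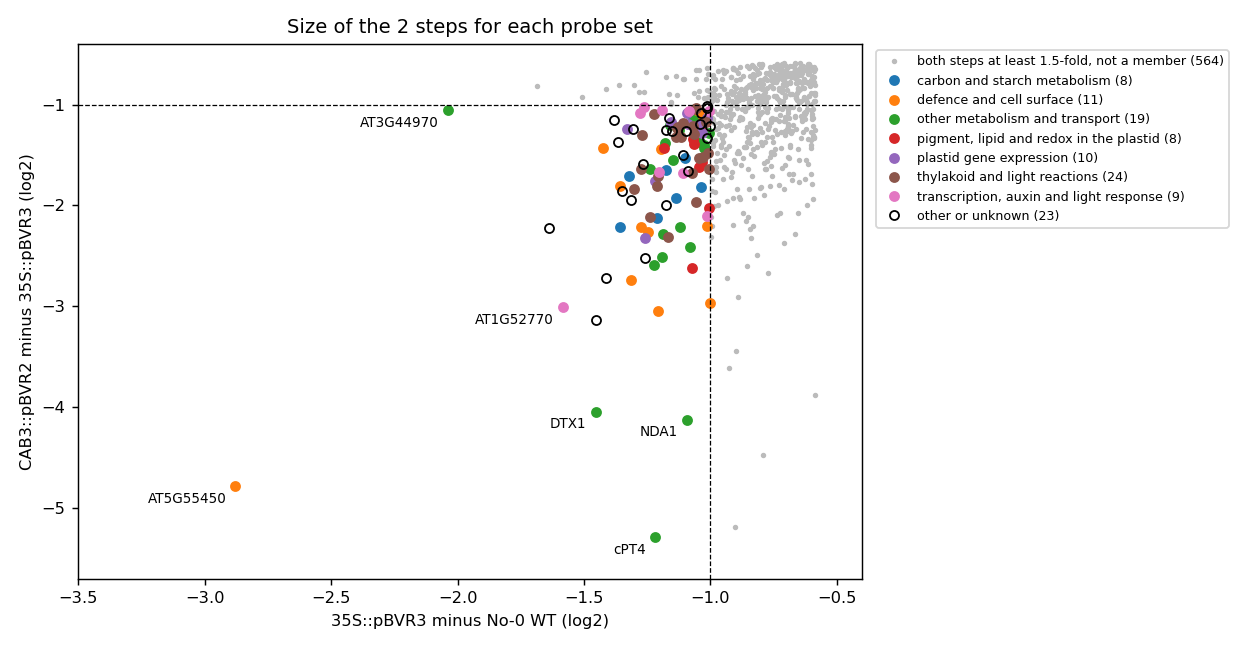
Each point is a probe set, with the log2 difference of 35S::pBVR3 from WT on the horizontal axis and that of CAB3::pBVR2 from 35S::pBVR3 on the vertical axis. Coloured points and open circles are the 112 genes by class, grey points are the other probe sets that were at least 1.5-fold lower in both steps without overlap, and dashed lines mark the limits of −1. Most genes lie close to the limit of the first step, and NDA1 and DTX1 have the largest second step among the genes above background on at least 1 CAB3::pBVR2 array. AT5G55450, cPT4 and AT1G52770 are drawn at their measured values although CAB3::pBVR2 was not above background.

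The first step was the narrower gate. Among the 12997 probe sets, 203 (1.56%) were at least 2-fold lower in 35S::pBVR3 than WT without overlap and 580 (4.46%) were at least 2-fold lower in CAB3::pBVR2 than 35S::pBVR3. Both held for 114 (0.877%), which became 112 once PnsL1 and CIPK20 were left out. Without a limit on size, 1398 probe sets (10.8%) had all arrays ordered in both steps. Of the 203 probe sets that were lower in 35S::pBVR3, 189 had a still lower mean in CAB3::pBVR2, 37 lay within 0.5 of 35S::pBVR3 on the log2 scale, and 14 were higher in CAB3::pBVR2 than 35S::pBVR3. Of the 580 probe sets that were lower in CAB3::pBVR2 than 35S::pBVR3, 546 were also lower in 35S::pBVR3 than WT in the mean and 132 lay within 0.5 of WT. The 2 steps use the same 35S::pBVR3 arrays, so these counts are a description of the order of the lines.

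Many probe sets lay just outside the first limit. There were 68 within 0.1 above it that met the rest of the rule, and 46 of the 112 genes lay within 0.1 below it. Just outside stood PnsL2, a subunit of the chloroplast NDH complex, with −0.9994 for 35S::pBVR3 against WT, AT1G26220, which encodes a GCN5-related acetyltransferase, with −0.9985, and RPL15, a plastid ribosomal protein gene, with −0.9937. Just inside stood AT5G48490 with −1.0005, AT4G16410 with −1.0026 and Tic62 with −1.0039. At the second limit, 8 probe sets lay within 0.1 above and 14 genes within 0.1 below. There AT5G46580 (−0.9969), AT2G30695 (−0.9769) and AT1G77670 (−0.937) stood just outside, whereas AT2G17240 (−1.0172), PHR2 (−1.0236) and AT3G61100 (−1.0325) stood just inside. The limit on the WT signal left out 8 probe sets, of which AIG1 (67.7) and HT1 (67.5) had the highest WT means, while CHAT (138) and TAR2 (172) were the named genes of lowest WT mean inside it. Another 4 probe sets met both limits but had overlapping arrays. ALMT12, AT1G21520 and NAC001 were the 3 of them with 1 named gene.

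**Figure D2:**
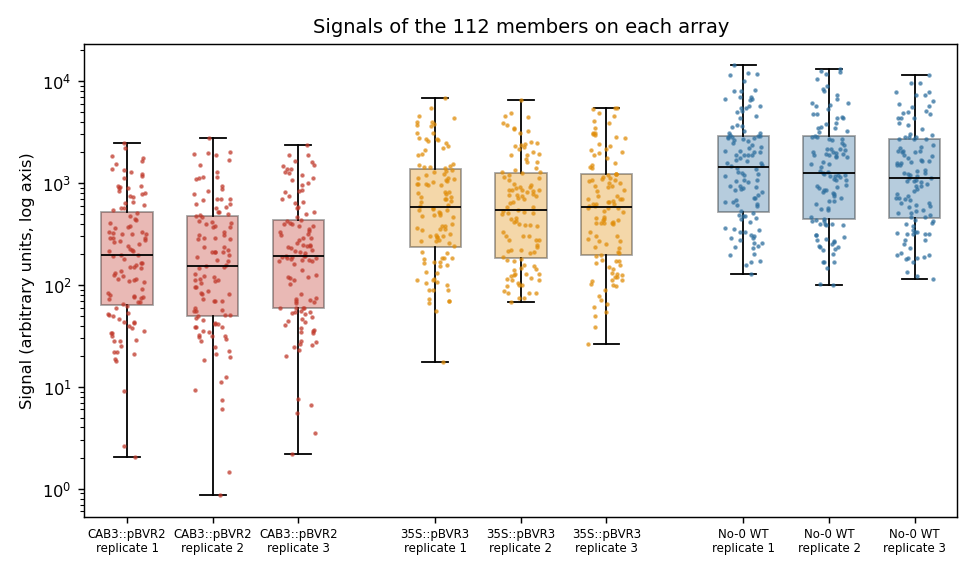
Signals of the 112 genes on each of the 9 arrays, on a log axis in arbitrary units; each point is a gene, boxes span the quartiles with a line at the median, and whiskers reach the lowest and the highest gene. Medians lie between 155 and 195 on the CAB3::pBVR2 arrays, between 541 and 582 on the 35S::pBVR3 arrays and between 1117 and 1441 on the WT arrays.

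Array by array, the median signal of the 112 genes was 195, 155 and 193 in CAB3::pBVR2, 580.4, 541 and 582 in 35S::pBVR3, and 1441, 1240 and 1117 in WT. The medians of the lines did not overlap, which the rule fixes in advance. WT replicate 3 stood below the mean of its line in 96 of the 112 genes, WT replicate 1 above it in 85, and CAB3::pBVR2 replicate 2 below it in 74. The same rule gave 154 probe sets without WT replicate 3 and 98 without WT replicate 1. Of the 112 genes, 42 stayed in whichever of the 9 arrays was left out. The median SD of the log2 signal within lines was 0.270 for these genes and 0.243 for the 12997 probe sets.

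Signs of RNA quality and of other cell types moved with the lines in part. The ratio of the 3′ to the 5′ control probe set of actin was 0.412 to 0.485 in CAB3::pBVR2, 0.401 to 0.515 in 35S::pBVR3 and 0.267 to 0.382 in WT, with its lowest value in WT replicate 3. The ratio for GAPDH was 0.898 to 1.08 in CAB3::pBVR2, 0.970 to 1.13 in 35S::pBVR3 and 0.931 to 0.940 in WT. The signal of the 25S ribosomal RNA was 227 to 725 in CAB3::pBVR2, 560 to 6649 in 35S::pBVR3 and 1302 to 8413 in WT, so that 35S::pBVR3 overlapped both other lines. FMA, a regulator of the last step of guard cell formation and the only gene of 8 on the stomatal marker list that was kept and named by the platform table, had signals of 56.7, 141 and 59.3 in CAB3::pBVR2, 109, 135 and 129.5 in 35S::pBVR3, and 200.3, 362 and 273 in WT. Its log2 difference was −1.79 ± 0.35 (SE) between CAB3::pBVR2 and WT (adjusted p = 0.00386, limma). The difference of −0.67 between CAB3::pBVR2 and 35S::pBVR3 did not pass (adjusted p = 0.3, 0.0417 without CAB3::pBVR2 replicate 2), nor did that of −1.12 between 35S::pBVR3 and WT (adjusted p = 0.0774, 0.0232 to 0.221 over the settings). SWEET11, a sucrose exporter of the phloem and the only 1 of 4 phloem markers kept and named by the platform table, had a mean of 10150 in CAB3::pBVR2, 7890 in 35S::pBVR3 and 7757 in WT, and passed in 0 of the contrasts. The 2 of 7 root hair and root markers kept and named in this way, EXPA7 and EXPA18, had a summed signal of 103 to 236 in CAB3::pBVR2, 51.0 to 160 in 35S::pBVR3 and 86.4 to 134 in WT. EXPA18 differed by 1.38 ± 0.50 between CAB3::pBVR2 and 35S::pBVR3, which passed with the replicate number as a block and without 35S::pBVR3 replicate 2 (adjusted p = 0.0226, limma), but not in the fit used (adjusted p = 0.133). For the epidermis and xylem lists 0 genes were kept and named in this way. Another 2 markers were named only through the list that the study chose on these arrays by the difference between the pBVR lines. Their values are therefore a description, and no test of them is given. TMM, a receptor-like protein of the stomatal lineage, had 132, 91.7 and 79.4 in CAB3::pBVR2, 224, 263 and 185 in 35S::pBVR3, and 298, 229 and 225.5 in WT. TMM was lower in CAB3::pBVR2 than 35S::pBVR3 (log2 difference −1.17), whereas the arrays of 35S::pBVR3 overlapped those of WT (−0.17). CRU3, a seed storage protein, ran against the stepwise order, with 1170, 2665 and 1284 in CAB3::pBVR2, 4885, 4521 and 4354 in 35S::pBVR3, and 106, 762 and 287 in WT. CRU3 was higher in CAB3::pBVR2 than WT (log2 difference 2.48) and in 35S::pBVR3 than WT (4.00), and no array of WT reached those of the pBVR lines. The part of RNA quality and of these cell types in the stepwise falls was not tested.

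Hardly any signal was left in CAB3::pBVR2 for AT5G55450 and cPT4. AT5G55450, a gene of the lipid transfer protein family, had signals of 2.61, 1.45 and 2.19 in CAB3::pBVR2, 66.5, 98.5 and 26.4 in 35S::pBVR3, and 942, 263 and 277 in WT. All 3 CAB3::pBVR2 arrays were below the highest bacterial control probe set of their array, which is taken as background here (27.0 to 48.0 over the arrays), as was 1 of the 35S::pBVR3 arrays. The gene was therefore at least 12.1-fold lower in CAB3::pBVR2 than WT, and 7.36-fold lower in 35S::pBVR3 than WT. The last was the largest first step of the set (log2 −2.88). cPT4, a cis-prenyltransferase gene of the family that makes polyprenols and dolichols, had 2.03, 0.867 and 3.56 in CAB3::pBVR2, 69.4, 82.8 and 65.3 in 35S::pBVR3, and 228, 169 and 123 in WT. CAB3::pBVR2 was again not above background, so that the gene was at least 4.94-fold lower there than in WT. Between the pBVR lines the measured log2 difference of −5.29 stood for a fold of at least 2.12.

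DTX1 and NDA1 combined a clear signal in WT with a signal near background in CAB3::pBVR2. DTX1, an efflux transporter of the plasma membrane, had 52.04, 55.7 and 28.1 in CAB3::pBVR2, 604, 1069 and 574 in 35S::pBVR3, and 2369, 1946 and 1651 in WT. It was 16.6-fold lower in CAB3::pBVR2 than 35S::pBVR3 and 2.74-fold lower in 35S::pBVR3 than WT. NDA1, an alternative NAD(P)H dehydrogenase of the mitochondrial inner membrane, had 28.3, 6.07 and 35.3 in CAB3::pBVR2, 295, 389 and 281 in 35S::pBVR3, and 814, 670.0 and 576 in WT, with folds of 17.5 and 2.14 in the same order. Of the CAB3::pBVR2 arrays 2 were not above background for NDA1 and 1 for DTX1, so that these folds rest in part on signals at background. For NDA1 replicate 2 was the lowest, and the pBVR lines stayed apart without it.

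Another 3 genes of this size had no well-known role or only a family name. AT1G52770, of the NPH3 family of phototropic response proteins, had 21.9, 7.51 and 6.58 in CAB3::pBVR2 (not above background), 68.9, 82.6 and 99.2 in 35S::pBVR3, and 234, 236 and 275 in WT. AT3G05730 had 31.6, 22.5 and 36.2 in CAB3::pBVR2, 399, 112 and 392.1 in 35S::pBVR3, and 647, 1141 and 486 in WT. AT1G65490 had 25.4, 30.7 and 26.2 in CAB3::pBVR2, 260.5, 205 and 111 in 35S::pBVR3, and 623, 439.9 and 406 in WT. In both AT3G05730 and AT1G65490, 2 of the CAB3::pBVR2 arrays were not above background. In AT3G05730 the arrays of 35S::pBVR3 spread the most, and its highest array (399) came close to the lowest of WT (486).

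**Figure D3:**
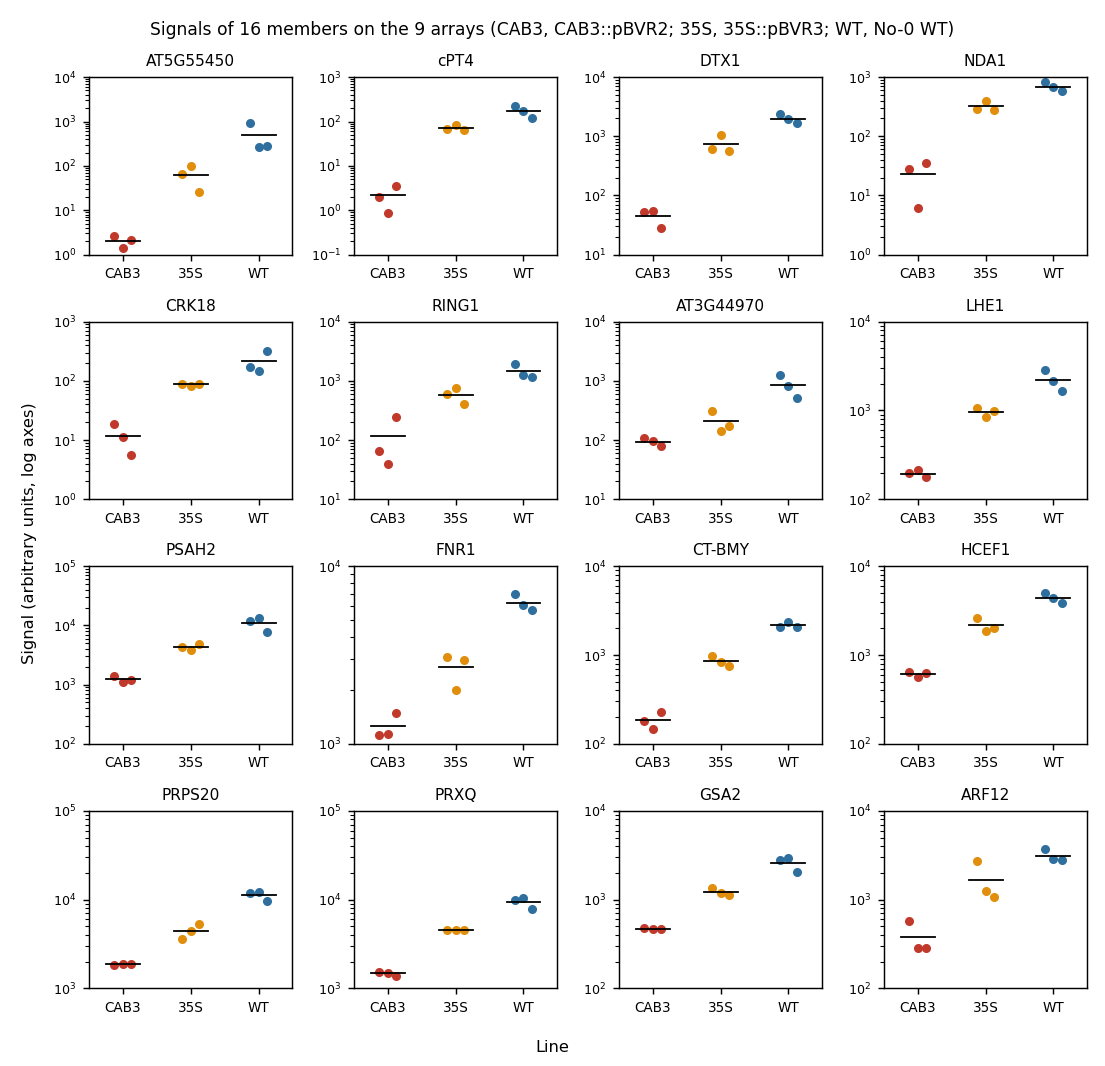
Signals of selected genes on the 9 arrays, on log axes in arbitrary units, with a panel for each gene; points are single arrays, lines are the mean of 3 arrays, and CAB3 and 35S stand for CAB3::pBVR2 and 35S::pBVR3. In each panel the arrays of the 3 lines do not overlap, as the rule requires, and AT3G44970 is a case where the gap between 35S::pBVR3 and WT is the wider.

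Genes were then grouped by the role of their product, a grouping made with the values known. Of the 112, 50 fell into 4 classes of chloroplast function: 24 for the thylakoid and the light reactions, 10 for plastid gene expression, 8 for carbon and starch metabolism, and 8 for pigments, lipids and redox control. A further 11 concerned defence and the cell surface, 19 other metabolism and transport, and 9 transcription, auxin and light responses. The other 23 belonged to none of these classes or had no known role. The share of chloroplast genes was not compared with that among all probe sets, since no annotation of location was used.

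Genes for the thylakoid had a median log2 difference of −2.52 between CAB3::pBVR2 and WT, and 17.4% of the WT signal was left in CAB3::pBVR2 against 46.3% in 35S::pBVR3. PSAH2, the subunit of photosystem I at which light-harvesting complex II docks, had 1372, 1093 and 1198 in CAB3::pBVR2, 4340, 3891 and 4879 in 35S::pBVR3, and 11890, 13160 and 7856 in WT. It was 3.58-fold lower in CAB3::pBVR2 than 35S::pBVR3, and 2.46-fold lower in 35S::pBVR3 than WT. PSBTN, a small subunit of photosystem II, was lower in the same order (2008 ± 432 in CAB3::pBVR2, 5750 ± 1015 in 35S::pBVR3 and 11880 ± 2304 in WT, mean ± SD, n = 3). PSB28, which takes part in the assembly of photosystem II, had 433 ± 63.4 in CAB3::pBVR2, 1406 ± 121 in 35S::pBVR3 and 3249 ± 343 in WT.

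LHE1, which encodes a chloroplast lumen protein and is the gene of this set that the study followed with mutants, had 196, 213 and 176 in CAB3::pBVR2, 1059, 849 and 995 in 35S::pBVR3, and 2878, 2151 and 1638 in WT. Of its whole log2 difference of −3.48, −2.31 lay between the pBVR lines. In the paper's quantitative RT-PCR, the change of LHE1 between the pBVR lines was borne out. Its change between 35S::pBVR3 and WT was less robust there than on the arrays. No other gene of the thylakoid class fell as far on the arrays. CaS, a calcium-binding protein of the thylakoid named here after its values were seen, followed with a difference of −3.35 (304 ± 29.6 in CAB3::pBVR2, 1311 ± 89.0 in 35S::pBVR3 and 3109 ± 431 in WT).

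Ferredoxin-NADP+ oxidoreductase passes electrons from ferredoxin to NADP+, and 3 genes around it were in the set: FNR1, which encodes a leaf form of the enzyme, and TROL and Tic62, whose products hold it at the thylakoid membrane. FNR2, another gene for the enzyme, stayed outside the set because its first step was −0.89. It had 336.5 ± 74.3 in CAB3::pBVR2, 2540 ± 601 in 35S::pBVR3 and 4608 ± 62.55 in WT, a larger whole difference (−3.80) than that of FNR1. FNR1 had 1126, 1142 and 1491 in CAB3::pBVR2, 3093, 2022 and 2984 in 35S::pBVR3, and 6953, 6047 and 5649 in WT. It was 1 of 3 genes of the class in which the step into 35S::pBVR3 was the larger (−1.22, against −1.09 for the step into CAB3::pBVR2). TROL had 745 ± 127 in CAB3::pBVR2, 2388 ± 385 in 35S::pBVR3 and 4981 ± 368 in WT. Tic62, which is also found at the import machinery of the inner envelope, had 82.0 ± 28.3, 247 ± 24.3 and 496 ± 43.3 in the same lines. For both tethers the step into CAB3::pBVR2 was the larger, at −1.68 for TROL and −1.64 for Tic62. ATPD, the delta subunit of the chloroplast ATP synthase, had 1292 ± 52.1 in CAB3::pBVR2, 2992 ± 203 in 35S::pBVR3 and 6334 ± 1163 in WT, with steps of nearly equal size (−1.21 and −1.07).

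The chloroplast NDH complex, which feeds electrons back into the plastoquinone pool in cyclic electron flow, was represented by NdhT, CRR42 and CRR21. NdhT, a subunit, had 35.1, 41.4 and 56.1 in CAB3::pBVR2, 114, 101 and 111 in 35S::pBVR3, and 255, 269 and 196 in WT. CRR42, needed for assembly of the complex, had 68.8, 55.3 and 25.9 in CAB3::pBVR2, 185, 129 and 176 in 35S::pBVR3, and 416, 396 and 317 in WT. CRR21, a pentatricopeptide repeat protein for editing of an NDH transcript, had 43.0, 115 and 119 in CAB3::pBVR2, 183, 178 and 157 in 35S::pBVR3, and 334, 400.3 and 344 in WT. CAB3::pBVR2 replicate 1 was the low array for CRR21, and CRR42 had its lowest signal on replicate 3. All 3 had WT means below 500, and for each of them 1 of the CAB3::pBVR2 arrays was not above background.

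The thylakoid lumen also holds immunophilins, prolyl isomerases that assist in the assembly of photosystems. FKBP16-4 had 151, 110.5 and 120.1 in CAB3::pBVR2, 478, 397 and 629.5 in 35S::pBVR3, and 1269, 1081 and 787 in WT, an 8.13-fold difference between CAB3::pBVR2 and WT. CYP37 had 156, 122 and 204 in CAB3::pBVR2, 383, 305 and 429.6 in 35S::pBVR3, and 893, 851 and 696 in WT, a 5.14-fold difference.

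The 8 genes for carbon and starch metabolism fell further than the thylakoid class at the median (−2.94). In all 8 the step into CAB3::pBVR2 was the larger, against 99 of the whole 112. CT-BMY, a chloroplast beta-amylase of starch breakdown, had 181, 148 and 228 in CAB3::pBVR2, 978, 831 and 743 in 35S::pBVR3, and 2056, 2368 and 2078 in WT. It was 11.8-fold lower in CAB3::pBVR2 than WT and 2.56-fold lower in 35S::pBVR3 than WT. ADG1, the small subunit of ADP-glucose pyrophosphorylase, which commits carbon to starch, had 332, 282 and 214 in CAB3::pBVR2, 1106, 893 and 627 in 35S::pBVR3, and 2215, 2012 and 1609 in WT. Thus a gene for making starch and 1 for breaking it down fell side by side. HCEF1, the chloroplast fructose-1,6-bisphosphatase of the Calvin cycle, had 642, 563 and 630.4 in CAB3::pBVR2, 2616, 1888 and 2003 in 35S::pBVR3, and 5059, 4352 and 3867 in WT. Its step into 35S::pBVR3 was −1.03 and its step into CAB3::pBVR2 was −1.81. AT3G48420 and AT4G39970, of the haloacid dehalogenase-like hydrolase family, were 10.1-fold and 8.18-fold lower in CAB3::pBVR2 than WT, and 2.31-fold and 2.497-fold lower in 35S::pBVR3 than WT.

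The 10 genes for plastid gene expression fell the least of the classes, with a median of −2.32 and 20.0% of the WT signal left in CAB3::pBVR2. Ribosomal proteins of the plastid made up most of the class. PRPS20 had 1846, 1882 and 1878 in CAB3::pBVR2, 3638, 4470 and 5306 in 35S::pBVR3, and 11720, 12300 and 9538 in WT. Its CAB3::pBVR2 arrays lay close together, and its step into 35S::pBVR3 (−1.33) was larger than its step into CAB3::pBVR2 (−1.24). PRPL11 and RPL9 had steps of nearly the same size as each other, −1.18 for both between the pBVR lines and −1.16 for both between 35S::pBVR3 and WT. PRPL11 had 890 ± 94.0 in CAB3::pBVR2, 2015 ± 119 in 35S::pBVR3 and 4490 ± 248 in WT. RPL9 had 1233 ± 118 in CAB3::pBVR2, 2787 ± 289 in 35S::pBVR3 and 6193 ± 266 in WT. EMB3105 had 1645 ± 21.4, 3784 ± 92.8 and 7817 ± 490 in the same lines. CSP41A, an RNA-binding protein of the chloroplast named after its values were seen, had the largest fall of the class, with a difference of −3.58 between CAB3::pBVR2 and WT (206 ± 46.5 in CAB3::pBVR2, 1021 ± 186 in 35S::pBVR3 and 2436 ± 341 in WT). PTAC16, a protein of the plastid transcription complex also named after its values were seen, followed with −2.97, and the other 8 lay between −2.57 and −2.14.

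In the class for pigments, lipids and redox control the step into CAB3::pBVR2 was the larger in all 8, against 99 of the whole 112. GSA2, glutamate-1-semialdehyde aminotransferase of the path to 5-aminolevulinic acid, had 473, 460.5 and 463 in CAB3::pBVR2, 1354, 1186 and 1128 in 35S::pBVR3, and 2757, 2907 and 2071 in WT. PCB2, the divinyl reductase late in chlorophyll synthesis, had 150.2, 153 and 194 in CAB3::pBVR2, 519, 513 and 439 in 35S::pBVR3, and 1071, 1315 and 710.3 in WT. So 1 gene early and 1 gene late in the same path were 5.48-fold and 6.08-fold lower in CAB3::pBVR2 than WT. FAD6, a desaturase of plastid membrane lipids, had 2207, 2765 and 2355 in CAB3::pBVR2, 5456, 6492 and 5415 in 35S::pBVR3, and 11510, 12500 and 11530 in WT.

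PRXQ and CDSP32 act in the removal of peroxides in the chloroplast. PRXQ, a thylakoid peroxiredoxin, had 1527, 1502 and 1385 in CAB3::pBVR2, 4503, 4520 and 4567 in 35S::pBVR3, and 9961, 10450 and 7853 in WT. CDSP32, a thioredoxin-like protein induced by drought, had 919, 705 and 850.2 in CAB3::pBVR2, 3674, 3252 and 3118 in 35S::pBVR3, and 8072, 6630 and 5615 in WT. CDSP32 was 4.07-fold lower in CAB3::pBVR2 than 35S::pBVR3, against 3.08-fold for PRXQ, while in 35S::pBVR3 the signal was close to 50% of WT in both.

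**Figure D4:**
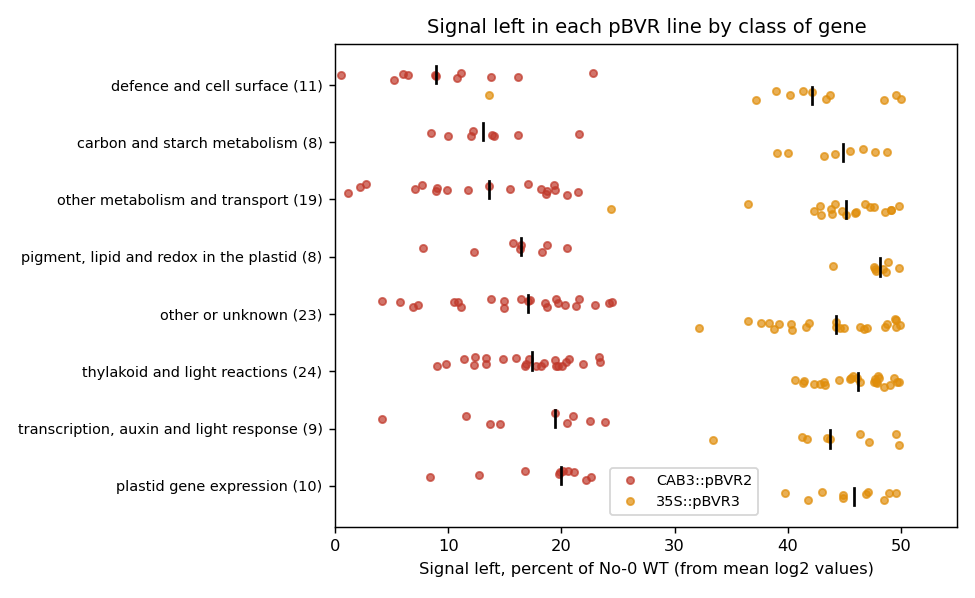
Signal left in CAB3::pBVR2 and in 35S::pBVR3 as a percentage of WT, on a linear axis; each point is a gene, rows are classes with the number of genes, and black bars are medians. In 35S::pBVR3 the class medians lie between 42.2% and 48.1%, close under the 50% that the rule sets, whereas in CAB3::pBVR2 they lie between 8.91% for defence and the cell surface and 20.0% for plastid gene expression. The 7 genes not above background in CAB3::pBVR2, 3 of them in the defence class, are drawn at their measured values.

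Genes for defence and the cell surface fell the furthest, with a median log2 difference of −3.49 between CAB3::pBVR2 and WT and a signal of 8.91% of WT left in CAB3::pBVR2. Since 3 of the 11 were not above background in CAB3::pBVR2, the median was −3.17 once these were set at their lower bounds. The median second step was −2.22 as measured and −1.44 with these bounds, against −1.76 for carbon and starch metabolism. WT means were under 500 in 8 of the 11. RING1, a RING finger protein of the plasma membrane that promotes cell death, had 64.5, 38.8 and 242 in CAB3::pBVR2, 597, 746 and 407 in 35S::pBVR3, and 1902, 1255 and 1170 in WT. CAB3::pBVR2 replicate 3 stood well above the other arrays of its line. ACD6, an ankyrin repeat membrane protein that promotes defence through salicylic acid, had 17.9, 19.6 and 20.2 in CAB3::pBVR2 (not above background), 88.6, 112 and 71.5 in 35S::pBVR3, and 203, 296 and 166 in WT. It was at least 6.34-fold lower in CAB3::pBVR2 than WT.

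Cysteine-rich receptor-like kinases and relatives formed a group of 3. CRK18, from a tandem array of such kinases on chromosome 4, had 18.8, 11.3 and 5.48 in CAB3::pBVR2 (not above background), 88.7, 83.3 and 89.3 in 35S::pBVR3, and 171, 148 and 320.4 in WT. ARCK1, a cytoplasmic kinase of the same family, had 33.9, 28.0 and 24.6 in CAB3::pBVR2, 113, 104 and 39.1 in 35S::pBVR3, and 259, 167 and 206 in WT. AT3G22060, a protein with the extracellular repeats of this family but no kinase, had 75.0, 32.2 and 27.3 in CAB3::pBVR2, 154, 142 and 129 in 35S::pBVR3, and 681, 220.0 and 319 in WT. ARCK1 had measured steps of equal size (−1.43 each), with 35S::pBVR3 replicate 3 close to the CAB3::pBVR2 arrays. Of the CAB3::pBVR2 arrays, 2 were not above background for ARCK1 and 1 for AT3G22060. The second steps of both therefore rest in part on signals at background. Close copies exist for genes of this family, so that a probe set may also take up RNA of a relative.

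A further pair of genes encoded disease resistance proteins of the TIR-NBS-LRR type. AT4G19530 had 39.5, 18.4 and 33.8 in CAB3::pBVR2, 105, 172 and 149.5 in 35S::pBVR3, and 310.3, 275 and 421 in WT. AT5G58120 had 33.7, 29.5 and 172 in CAB3::pBVR2, 314, 249 and 213 in 35S::pBVR3, and 472, 459.8 and 631 in WT. In AT5G58120, as in RING1, CAB3::pBVR2 replicate 3 was the high array. Not above background were 2 of the CAB3::pBVR2 arrays for AT4G19530 and 1 for AT5G58120. AT5G48490, a lipid transfer protein close to the systemic resistance protein DIR1, had 108, 95.8 and 102 in CAB3::pBVR2, 946, 769.5 and 693 in 35S::pBVR3, and 1870, 1808 and 1195 in WT. It was 7.81-fold lower in CAB3::pBVR2 than 35S::pBVR3 but lay at the very edge of the rule for 35S::pBVR3 against WT (2.001-fold), and it met the rule under 1 of 3 other scalings of the arrays.

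In the class of other metabolism and transport, AT3G44970 stood out by the order of its steps. This cytochrome P450 gene had 107, 95.1 and 80.8 in CAB3::pBVR2, 306, 142 and 171 in 35S::pBVR3, and 1241, 814 and 509.9 in WT. It was 4.11-fold lower in 35S::pBVR3 than WT and only 2.08-fold lower in CAB3::pBVR2 than 35S::pBVR3. Thus 65.8% of its whole log2 difference lay in the first step. This was the highest share of the 105 genes above background on at least 1 CAB3::pBVR2 array. CYP89A2, another cytochrome P450 gene, had the opposite balance, with 67.7 ± 11.5 in CAB3::pBVR2, 324 ± 117 in 35S::pBVR3 and 682 ± 99.8 in WT (4.65-fold and 2.17-fold). A pair of acyltransferase genes of 1 family was also in the class. AT3G50270 had 42.8, 45.8 and 46.8 in CAB3::pBVR2, 273, 276 and 268 in 35S::pBVR3, and 708, 717 and 505 in WT. For AT3G50270, 1 of the CAB3::pBVR2 arrays was not above background. CHAT, which makes the acetate ester of a leaf volatile, had 21.2, 24.4 and 22.9 in CAB3::pBVR2 (not above background), 55.1, 75.0 and 49.96 in 35S::pBVR3, and 129, 100.5 and 185 in WT.

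Of the 9 genes for transcription, auxin and light responses, the step into CAB3::pBVR2 was the larger in 5 and that into 35S::pBVR3 in 4. No other class came as close to an equal count, which does not show how evenly single genes divided their fall. ARF12, an auxin response factor, had 568, 283 and 286 in CAB3::pBVR2, 2689, 1254 and 1079 in 35S::pBVR3, and 3706, 2854 and 2823 in WT. Replicate 1 was the highest array in each line for ARF12, and its probe set may also detect nearly identical relatives of this gene. TAR2, a tryptophan aminotransferase of auxin synthesis, had 21.8, 42.5 and 48.1 in CAB3::pBVR2, 89.1, 73.9 and 60.7 in 35S::pBVR3, and 156, 225 and 136 in WT. For TAR2, 1 of the CAB3::pBVR2 arrays was not above background. PHR2, a photolyase-like protein, had 289, 173 and 185 in CAB3::pBVR2, 358, 536 and 406 in 35S::pBVR3, and 1052, 1089 and 941 in WT. For PHR2 the gap between 35S::pBVR3 and WT was wide and that between the pBVR lines narrow. AT4G34290 and AT2G14880, both with a SWIB domain, were 4.44-fold and 4.19-fold lower in CAB3::pBVR2 than WT, each in steps of nearly equal size.

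The 23 genes outside these classes included AT3G05730 and AT1G65490 above, and AT4G16410, AT2G17240 and AT3G61100 from the edge of the rule. AT4G16410 had 1580 ± 386 in CAB3::pBVR2, 3604 ± 330 in 35S::pBVR3 and 7253 ± 1074 in WT. AT2G17240 had 321 ± 13.4 in CAB3::pBVR2, 652 ± 71.9 in 35S::pBVR3 and 1318 ± 158 in WT, the smallest whole difference of the 112 (−2.03). AT3G61100 had 379 ± 36.1 in CAB3::pBVR2, 783 ± 150 in 35S::pBVR3 and 1571 ± 212 in WT. In all, 109 of the 112 probe sets had 1 named gene, 2 detected several genes (FAD7 with FAD8, and AT2G23590 with AT2G23600) and 1 had no name. Only 3 pairs of the named genes lay within 10 protein-coding genes of each other in the TAIR10.1 annotation, so that the set was not built of neighbours.

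Pathway lists were used to see how the relatives of these genes behaved. Here only kept probe sets named by the platform table were counted, and only their genes are called measured. Each contrast was tested with limma over 15436 kept probe sets, of which 29.2% differed among the lines by the F-test. In CAB3::pBVR2 against 35S::pBVR3, 6.69% were lower and 1.74% higher (8.93% and 4.13% with the replicate number as a block). In 35S::pBVR3 against WT, 5.29% were lower and 4.25% higher (8.57% and 7.56% with the block). In CAB3::pBVR2 against WT, 20.2% were lower and 16.7% higher (22.8% and 21.2%). Of 10 plastid ribosomal protein genes measured, none of them in the stepwise set, 10 were lower in CAB3::pBVR2 than 35S::pBVR3 (median log2 difference −1.12, against 0.03 for all kept probe sets). In 35S::pBVR3, 8 of the 10 were lower than in WT (median −0.60, against −0.03). The counts with the block were 10 and 10.

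For chlorophyll synthesis, 6 of 9 measured genes outside the set were lower in CAB3::pBVR2 than 35S::pBVR3 and 5 were lower in 35S::pBVR3 than WT (7 and 8 with the block). CHLI2, a subunit of magnesium chelatase, had 231 ± 21.1 in CAB3::pBVR2, 764 ± 142 in 35S::pBVR3 and 1350 ± 120 in WT, with differences of −1.71 ± 0.18 (SE, adjusted p = 0.000825, limma) between the pBVR lines and −0.84 ± 0.18 (adjusted p = 0.0242, 0.00946 to 0.0867 over the settings) between 35S::pBVR3 and WT. GSA1, the second gene for the enzyme that GSA2 encodes, had 675 ± 111 in CAB3::pBVR2, 1051 ± 155 in 35S::pBVR3 and 1641 ± 231 in WT. Its steps of −0.64 and −0.64 did not pass (adjusted p = 0.0727 and 0.0639, limma), although CAB3::pBVR2 was lower than WT (−1.28 ± 0.19, adjusted p = 0.000839). Whether GSA1 and GSA2 differ in their response was not tested, since GSA2 was chosen for its fall.

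Of 9 thioredoxins and peroxiredoxins outside the set, 7 were lower in CAB3::pBVR2 than 35S::pBVR3 and 5 were lower in 35S::pBVR3 than WT (3 with a plain analysis of variance). TY1, a y-type thioredoxin, ran the other way, with 413 ± 30.4 in CAB3::pBVR2, 303 ± 43.8 in 35S::pBVR3 and 233 ± 12.3 in WT. It was higher in CAB3::pBVR2 than WT (0.82 ± 0.16, SE, adjusted p = 0.0031, limma), but its single steps of 0.45 and 0.37 did not pass (adjusted p = 0.115 and 0.161). Of 10 immunophilins measured besides FKBP16-4 and CYP37, 4 were lower in CAB3::pBVR2 than 35S::pBVR3 and 3 lower in 35S::pBVR3 than WT. Of 4 Calvin cycle genes, 3 and 2 were lower in the same 2 contrasts. Among them SBPASE, the sedoheptulose-bisphosphatase, had 1298 ± 190 in CAB3::pBVR2, 4891 ± 697 in 35S::pBVR3 and 9162 ± 2287 in WT, and was lower by more than the spread in the second step (−1.91 ± 0.21, adjusted p = 0.00109, limma) and in the first (−0.89 ± 0.21, adjusted p = 0.0344, 0.0137 to 0.0936 over the settings).

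The lists for the photosystems were measured in small part, since most of their genes were named only through the study's list. Both measured photosystem I genes and all 3 measured photosystem II genes were lower in CAB3::pBVR2 than 35S::pBVR3, and 1 of each list was lower in 35S::pBVR3 than WT (with the block, 2 of photosystem II). PSAE-1, a photosystem I subunit at the ferredoxin side, had 2832 ± 195 in CAB3::pBVR2, 7971 ± 1012 in 35S::pBVR3 and 14200 ± 983 in WT (−1.49 ± 0.15 between the pBVR lines, adjusted p = 0.000779, and −0.84 ± 0.15 between 35S::pBVR3 and WT, adjusted p = 0.0159, 0.00545 to 0.0516 over the settings, limma). Of 3 starch genes outside the set, 0 passed in limma in either step (1 lower in CAB3::pBVR2 than 35S::pBVR3 and 2 lower in 35S::pBVR3 than WT at an unadjusted p under 0.05, 0 and 2 with the block, and 0 in a plain analysis of variance). All 3 were lower in CAB3::pBVR2 than WT, with a median of −0.67. For salicylic acid and defence, SAG101 was the measured gene outside the set and passed in 0 of the contrasts, with means of 189, 184 and 222 in CAB3::pBVR2, 35S::pBVR3 and WT. The measured electron transport gene, ATPC1, was lower in CAB3::pBVR2 than 35S::pBVR3 (−0.93, adjusted p = 0.00454, limma). Among the measured genes of these lists 0 were higher in either step (1 in each step, TY1, at an unadjusted p under 0.05, and 0 with a plain analysis of variance or the block). PORA, a chlorophyll synthesis gene named only through the study's list and so not counted, was higher in 35S::pBVR3 than WT (measured log2 difference 4.82). It had 217, 142 and 99.7 in CAB3::pBVR2, 681, 90.7 and 562 in 35S::pBVR3, and 14.7, 9.26 and 11.2 in WT (not above background). Over all lists, 36 of 52 measured genes outside the set were lower in CAB3::pBVR2 than 35S::pBVR3, and 28 to 36 without single arrays. The 25 that were lower in 35S::pBVR3 than WT depended on single arrays, with 2 lower without WT replicate 2, 3 without WT replicate 1, and 7, 7 and 8 without a 35S::pBVR3 array. For the lists of fatty acid and lipid synthesis, tandem receptor kinases of chromosome 4 and phytochromes, 0 genes were kept and named by the platform table. FAD5 and FAD6 of the lipid list had signals but were named only through the study's list.

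**Figure D5:**
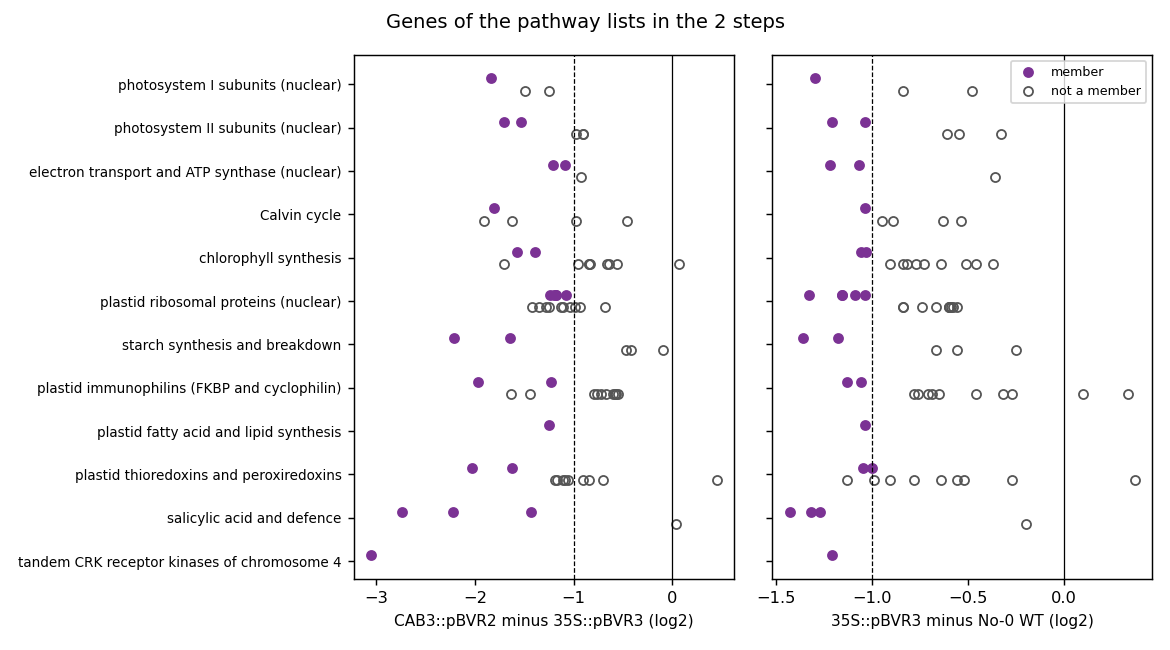
Log2 differences of the genes of each pathway list, between CAB3::pBVR2 and 35S::pBVR3 on the left and between 35S::pBVR3 and WT on the right; filled points are genes of the stepwise set, open points are the other measured genes named by the platform table, and dashed lines mark the limit of −1. Open points of the plastid ribosomal proteins lie left of 0 in both panels, and in the right panel most open points lie between −1 and 0.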

How the data were processed

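RNA was measured in 9 samples, 3 arrays for each line. The authors deposited probe set signals (linear intensity values) from MAS5. The sources used here do not give its version or its scaling. Their mean after trimming 2% at each end was 495 to 497 on every array. Signals were put on the log2 scale (3 values of 0 set to 0.1), each array was shifted by its 75th percentile as in the study's methods, and signals are given after that shift (mean ± SD of 3 arrays). Array medians before it were 139 to 184. The number of arrays limits the precision.

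The background of an array was the highest of 27 bacterial control probe sets. A line with all arrays at or below it is called not above background, and its fold is a lower bound computed against that level.

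For the pathway lists, limma 3.58.1 (R 4.3.3) was fitted on all 9 arrays, with Benjamini-Hochberg adjustment over 15436 probe sets that reached the 40th percentile on at least 1 array, at 0.05. The fit was tested on simulated data. Samples with the same replicate number in the labels deviated together (r = 0.207 to 0.391 over 9 pairs, against −0.263 to −0.051 over 18 pairs of different number), and a fit with this number as a block was an alternative. P-values measure the spread between RNA extractions.

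The platform table names 1 gene for 13436 probe sets found in RefSeq. Names of 346 more came from the study's supplementary list, chosen on these arrays, and were used to name single genes only. The genes, lists and classes were chosen with earlier results of these data known. The text names the 10 largest falls, the 5 largest first steps, the 5 highest No-0 WT signals, up to 4 genes a list, family pairs, genes the study names, and those next to each limit. Alternatives were 3 other scalings, other limits, filters, a plain test and leaving out each array.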

Additional observations from a re-analysis of the deposited data

How the results depend on the processing

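The rule gave 112 genes with the 75th percentile, 141 with the median of each array (all 112 among them), 84 with quantile normalization (80 shared) and 75 with signals as deposited (all 75 shared). Of the 112, 68 met it under all 3 of these scalings. It gave 676 with steps of 1.5-fold, 11 with steps of 2.5-fold and 74 after adding 32 to each signal, all 74 within the 112. Leaving out 1 array gave 98 (WT replicate 1) to 154 (WT replicate 3). In 3 of the 7 genes not above background in CAB3::pBVR2, the lower bound of the second step was under 2-fold, and the median whole difference was −2.59 with all 7 at their bounds, against −2.62. For the named genes of the set, the difference between CAB3::pBVR2 and WT kept its sign in all 702 recomputed values and moved by more than the spread between arrays in 41.

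Counts in limma depended on the settings most for 35S::pBVR3 against WT. It called 817 lower and 656 higher, against 1323 and 1167 with the replicate number as a block, 125 and 168 without a filter, and 642 and 403 with a plain analysis of variance. For CAB3::pBVR2 against 35S::pBVR3 it called 1033 lower and 268 higher, against 1379 and 637 with the block and 619 and 76 without a filter. Without a shift, lower calls were 41.6% for CAB3::pBVR2 against WT (54.6% in the fit used), 42.5% for 35S::pBVR3 against WT (55.5%) and 68.0% between the pBVR lines (79.4%), and the median of all probe sets moved to 0.17 between CAB3::pBVR2 and WT. Among 52 list genes outside the set, 25 were lower in 35S::pBVR3 than WT, against 14 with quantile normalization and 4 without a filter. The cause of these shifts was not tested.

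Without single arrays, with fewer samples in each fit, the F-test called 3168 to 4318 probe sets (4506 with all). CAB3::pBVR2 against 35S::pBVR3 gave 653 (without 35S::pBVR3 replicate 1) to 924 lower and 99 (without CAB3::pBVR2 replicate 1) to 233 higher. For 35S::pBVR3 against WT there were 109 (without WT replicate 2) to 724 lower and 191 (without the same array) to 600 higher, and leaving out any WT or 35S::pBVR3 array lowered both counts by over 1.5 times. CAB3::pBVR2 against WT gave 2511 to 3048 lower and 1890 to 2533 higher. Of the list genes, 28 to 36 were lower between the pBVR lines, 2 (without WT replicate 2) to 22 lower in 35S::pBVR3 than WT, and 45 to 47 lower in CAB3::pBVR2 than in WT.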
